A study of Mus musculus with 16 samples.

Results

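The antibody that a B cell makes has a constant region, and the transcripts of 10 constant region genes were followed here in single germinal center (GC) B cells of the light zone (LZ). The rows of the count matrix with the symbols *Ighm*, *Ighd*, *Ighg1*, *Ighg2b*, *Ighg2c*, *Ighg3*, *Igha*, *Igkc*, *Iglc1* and *Iglc2* were taken, which found 10 of 56691 genes, 7 of the heavy chain and 3 of the light chain. The matrix holds 637 cells, sorted from the lymph nodes of 8 recipient mice (hosts), 5 on the BTK inhibitor acalabrutinib, which carry the codes A7, A8 and A10 to A12, and 3 on vehicle, with the codes V5, V7 and V9. All cells carry B1-8hi, a heavy chain inserted into the germline whose lambda-bearing receptors recognize NP, a small chemical hapten, strongly. They were transferred into ovalbumin-primed recipients, which then received NP coupled to ovalbumin. The labels describe 16 samples, the genotypes B1-8hi BTKC481S and B1-8hi BTKWT in each host. BTK is a kinase that relays B cell receptor signals. The cysteine that acalabrutinib binds is a serine in BTKC481S cells, which therefore resist the drug, and BTKWT cells do not. The names of the cells give a host and no genotype, so both genotypes of a host were combined and the host was the replicate. The cells came from independent experiments that are not tied to hosts in the sources used here, so a difference between experiments and one between hosts cannot be told apart, and the age of the mice is not given in the labels.

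A naive B cell joins its rearranged heavy chain variable region to *Ighm* and, by alternative splicing of the same primary transcript, to *Ighd*. Class switching then deletes DNA between the variable region and a gene further along the locus, so that the same variable region is read out with a gamma, epsilon or alpha constant region. The light chain does not switch and is either kappa, with the single gene *Igkc*, or lambda, for which mice have several small clusters, each a joining segment and a constant gene.

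Some of the constant genes are close copies of each other, which bears on how reads can be assigned. The first 90 aligned coding bases of 3 lambda constant genes are therefore shown, 5′ to 3′, from the GENCODE M21 transcripts (built on GRCm38). Capitals mark, in *Iglc2*, the 21 bases at which either of the others differs, and in the others the bases that differ from *Iglc2*.
Iglc2: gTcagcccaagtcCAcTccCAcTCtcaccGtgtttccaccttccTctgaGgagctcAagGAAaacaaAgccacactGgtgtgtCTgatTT
Iglc1: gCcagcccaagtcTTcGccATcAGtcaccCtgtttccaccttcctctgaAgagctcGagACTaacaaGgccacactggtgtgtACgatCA
Iglc3: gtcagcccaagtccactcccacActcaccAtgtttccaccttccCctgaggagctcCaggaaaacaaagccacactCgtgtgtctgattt

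Over the whole coding sequence *Iglc2* shared 96.5% of 314 aligned bases with *Iglc3* and 74.8% of 313 with *Iglc1*. The level of *Iglc2* is therefore uncertain to the extent that reads from *Iglc3*, which is no member of the set, were assigned to it or were dropped for matching both. The 4 gamma genes are easier to tell apart. *Ighg1* shared 76.9% of 971 aligned coding bases with *Ighg2b*, 77.7% of 971 with *Ighg2c* and 75.7% of 968 with *Ighg3*, whereas *Ighg2b* and *Ighg2c* shared 85.9% of 1004. With *Ighm*, *Ighg1* shared 58.0% of 947 aligned coding bases. The hinge, the flexible stretch between the arms and the stem of the antibody, is coded by a separate exon of 39 bases in *Ighg1*, 66 in *Ighg2b*, 63 in *Ighg2c* and 48 in *Ighg3*, which is printed whole and in lower case because a read across it tells the classes apart.
Ighg1: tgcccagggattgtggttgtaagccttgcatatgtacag
Ighg2b: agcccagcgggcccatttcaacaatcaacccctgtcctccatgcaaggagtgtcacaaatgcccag
Ighg2c: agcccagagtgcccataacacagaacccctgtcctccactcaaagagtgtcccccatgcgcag
Ighg3: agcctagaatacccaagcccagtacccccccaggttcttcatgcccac

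The depth of a cell ranged from 132412 to 1825420 counts with a median of 789357, and that of a host from 26778559 to 114987280 counts over 45 to 130 cells. The B cell markers *Cd79a* and *Cd79b* had a count in 99.5% and 97.5% of cells, and the GC marker *Mef2b* in 91.5%. The 6 T cell markers summed to at most 16.0 counts per 1000000 of a library's total (CPM) and the 5 macrophage and monocyte markers to at most 33.9 CPM in any host, against at least 3357 CPM for the 5 B cell markers. By the summed levels the cells were B cells. Of the defining markers *Itgam* was at 0 and *Cd3e* at or near 0 in every host, while *Adgre1* had a count in 38.1% of cells (up to 28.5 CPM in a host), *Cd68* in 9.11% (up to 27.8 CPM) and *Cd4* in 2.04% (up to 12.9 CPM), and the part of such cells in the results was not tested.

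Transcripts of IgG1 were found in nearly every cell. *Ighg1*, the constant gene of IgG1 and the main product of switching under interleukin 4, had a count in 623 of 637 cells (97.8%). It made up 90.3% of the counts of the 7 heavy chain members, which are called heavy chain counts from here on. Its level in single cells had a median of 1731 CPM, with 10% of cells below 823 CPM and 10% above 2690 CPM. *Ighm*, the constant gene of IgM, had a count in 93 cells (14.6%) and made up 7.49% of heavy chain counts, and where it was detected its median was 671 counts. *Ighd*, which encodes the IgD tail that naive cells carry beside IgM, was detected in 41 cells (6.44%).

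The remaining heavy chain genes were rare or traces. *Igha*, the constant gene of mucosal IgA, had a count in 26 cells and reached 10 counts in 24 of them. *Ighg2b* had a count in 29 cells but reached 10 counts in 11, and *Ighg2c*, the IgG2 gene of C57BL/6 mice that interferon-γ favors, reached 10 counts in 5. *Ighg3* showed the largest gap between detection and level. It had a count in 98 cells (15.4%), with a median of 1 count where detected, and only 10 cells held 10 counts or more, up to 747. *Ighe*, the IgE gene, which is not in the set but completes the locus, reached 10 counts in 19 cells. The symbol *Ighg2a* has no row in the matrix.

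**Figure D1:**
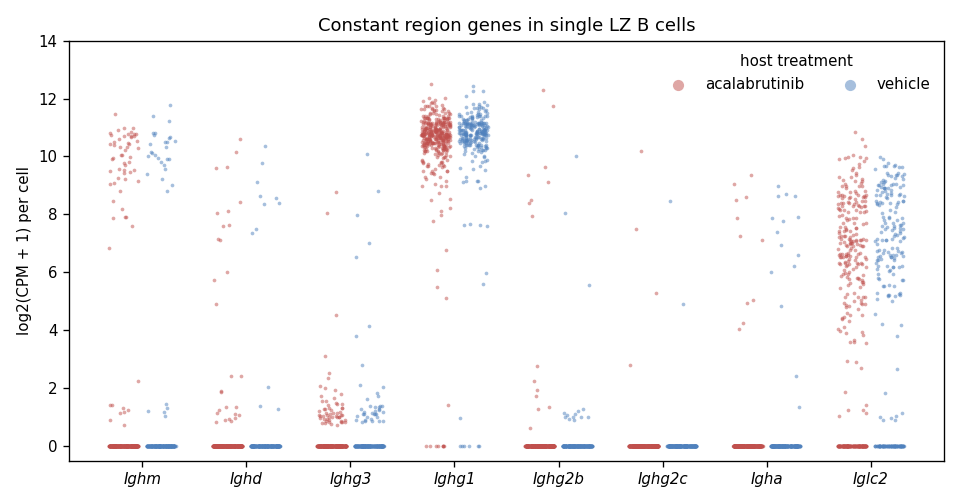
Level of the 8 constant region genes with any count in each of the 637 cells, as log2(CPM + 1), with heavy chain genes in the order of the locus and *Iglc2* last; each point is a cell, red for hosts given acalabrutinib and blue for vehicle. *Ighg1* forms a single band in nearly all cells, *Ighm* splits into a high group and cells at 0, and *Ighg3* shows mostly single counts.

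Of the light chain members only *Iglc2* could be read. It had a count in 390 cells (61.2%), at least 10 in 372 (58.4%), and where detected a median of 116 counts and a highest value of 1128. *Igkc* and *Iglc1* had 0 counts in all 637 cells, and *Iglc3* was at 0 too. In the GENCODE M21 annotation *Igkc* on chromosome 6 lies wholly within the span of the noncoding gene *Gm30211*, and *Iglc1* and *Iglc3* on chromosome 16 lie within that of *2010309G21Rik*, while *Iglc2* and the heavy chain members on chromosome 12 lie within no other gene. The authors counted a read by its overlap with a gene region. Across the matrix 87.8% of the 1270 protein-coding genes that lie wholly within another gene had 0 counts, against 8.94% of 20601 others. *Gm30211* itself held 44348 counts in 148 cells and *2010309G21Rik* 64218 counts in 428 cells. The part of the counting rule in the zeros of *Igkc* and *Iglc1* was not tested, and no cell can be called kappa or lambda 1 from these rows. The dominant light chain was therefore *Iglc2* in all 372 cells with at least 10 light chain counts and kappa in 0, which states only which gene was countable, and the planned comparisons of kappa shares, *Iglc2* shares and kappa with lambda were not possible from these genes.

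Levels can be ordered across genes only per length. Over all cells *Ighg1* stood at 655 CPM per kilobase of exon, *Iglc2* at 225, *Ighm* at 74.6, *Ighe* at 8.94, *Ighd* at 7.94, *Ighg2b* at 5.15, *Igha* at 2.96, *Ighg3* at 1.53 and *Ighg2c* at 0.829 CPM per kilobase. By host, *Ighg1* (569 to 797 CPM per kilobase of exon), *Iglc2* (127 to 320) and *Ighm* (26.2 to 124) did not overlap in this order. Reads over introns were counted too, and the genes span more bases than their exons. *Iglc2* spans 1956 bases with 612 exonic, and *Ighm* 4173 with 1886 exonic. The order and the overlaps could differ per base of span, which was not tested. From *Ighe* down, each gene overlapped its neighbour over the 8 hosts. Counts were made unique by exact position without molecular identifiers, so the count of a short gene has a ceiling. The highest cell held 1.62 counts per exonic base for *Ighg1* and 1.84 for *Iglc2*, above the 95th percentile of 1.01 among the 862 genes with a mean of at least 200 counts per cell, and whether the highest levels of both are compressed was not tested.

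The 10 genes together took a small share of a cell's counts. The total includes reads over introns of all genes, and the ceiling on the counts of short genes applies here too. How this share relates to the share of a cell's RNA was not tested. *Igkc* and *Iglc1* added 0 to it, so any transcripts of these 2 genes are left out, and heavy chain genes held 93.2% of the summed counts. The median was 0.201% of counts, with 10% of cells below 0.120% and 10% above 0.314%. The lowest cell was at 0.000334%, and 1 cell, in host A10, exceeded 1% at 1.25%. The host medians were 0.218% in A7, 0.217% in A8, 0.200% in A10, 0.189% in A11 and 0.181% in A12, and 0.245% in V5, 0.229% in V7 and 0.191% in V9. The acalabrutinib hosts averaged 0.201% and the vehicle hosts 0.222%, a difference about the size of the spread between hosts (pooled SD 0.0208 percentage points), and the groups overlapped.

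In 635 cells with at least 10 heavy chain counts, the gene with most counts was *Ighg1* in 594 (93.5%), *Ighm* in 37 (5.83%), *Ighd* in 2 and *Ighg2b* in 2, and it was never *Ighg2c*, *Ighg3* or *Igha*. The dominant gene was called on raw counts and not per length. *Ighm* has 1886 exonic bases and *Ighg1* 2592, so a call per exonic base moves some cells with both genes from IgG1 to IgM. A cell of A11 with 1077 *Ighm* and 1336 *Ighg1* counts is an example. How many cells would move was not tested, and this limit applies to all IgM-dominant and IgG1-dominant cells below. The call on counts was usually clear. One gene held all heavy chain counts in 420 of these cells (66.1%) and at least 90% in 544 (85.7%). One cell of the matrix had no heavy chain count at all, and 14 cells had none of *Ighg1*. Of those 14, *Ighm* was dominant in 12 and *Ighg2b* in 1.

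Cells with transcripts of more than 1 class were mostly cells with transcripts of IgM or IgD and IgG1. The counts are RNA over the exons and introns of constant genes. Which of these transcripts were joined to the rearranged variable region was not tested, so a class here means RNA and not antibody. A class was counted from 10 counts and 1% of a cell's heavy chain counts, with *Ighm* and *Ighd* as 1 class. By that rule 105 of 637 cells (16.5%) held 2 or more classes, 98 of them exactly 2, 6 held 3 and 1 held 4. The commonest sets were IgM or IgD with IgG1 (61 cells), IgG1 with IgA (22 cells), IgG1 with IgG2b (6 cells) and IgG1 with IgG3 (5 cells). Of these classes 518 cells held IgG1 alone and 12 held IgM or IgD alone. *Ighe* is no member and was not counted as a class. Of the 19 cells with at least 10 *Ighe* counts 18 held *Ighg1* too, so cells with RNA of IgG1 and IgE are among those listed under IgG1 alone.

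Pairs of genes were also counted with at least 10 counts of each. All 22 *Ighd* cells also held *Ighm*, which was 27.8% of the 79 *Ighm* cells. *Ighg1* was present in 66 of the 79 *Ighm* cells (83.5%), which were 10.6% of the 621 *Ighg1* cells. All 24 *Igha* cells and 18 of the 19 *Ighe* cells held *Ighg1*. *Ighg2b* and *Ighg2c*, the most alike pair of gamma genes, were found together in 3 cells, which were 27.3% of *Ighg2b* and 60.0% of *Ighg2c* cells. *Ighm* was rarely a trace where it reached 10 counts. It made up less than 10% of heavy chain counts in 3 of the 79 cells, 10 to 50% in 39, 50 to 90% in 29 and at least 90% in 8. Cells were sorted singly into wells and no doublet caller was run, so the part of wells with RNA of more than 1 cell was not tested.

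**Figure D2:**
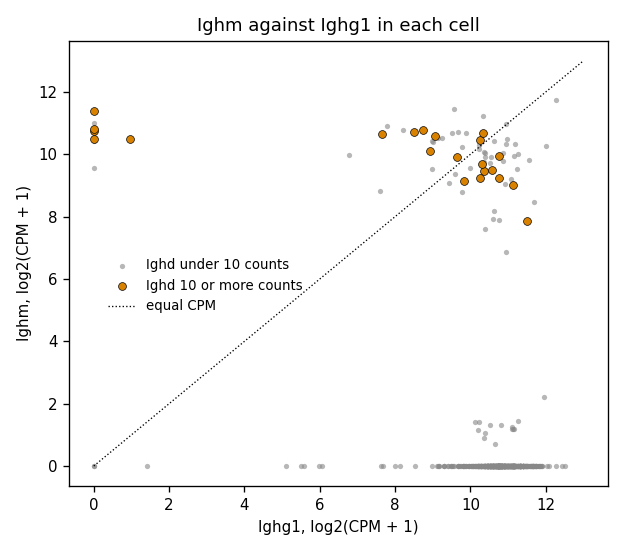
*Ighm* against *Ighg1* in each cell, both as log2(CPM + 1); orange points are the 22 cells with at least 10 *Ighd* counts and the dotted line marks equal CPM. Most cells lie along the bottom with *Ighg1* alone, and the *Ighm* cells lie above them, from cells with no *Ighg1* at the left to cells near the dotted line.

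The heavy chain variable region gave a second readout. *Ighv1-72* is the germline variable gene from which B1-8 derives. It had a count in 607 cells (95.3%), at least 10 in 597, and held 70.8% of all *Ighv* counts. Among the 604 cells with at least 10 *Ighv* counts it was the highest *Ighv* gene in 553 (91.6%). Next by total came *Ighv5-2*, with 2461 counts in 22 cells, and *Ighv1-74*, with 2037 counts in 475 cells. *Ighv1-74* and *Ighv1-69* each share 93.4% of 348 aligned coding bases with *Ighv1-72*. *Ighv1-64*, with 1125 counts in 295 cells, shares 95.4% of 351. The low counts of these genes are therefore uncertain.

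IgM-dominant cells carried *Ighv1-72* as IgG1-dominant cells did. *Ighv1-72* reached 10 counts in 34 of 37 IgM-dominant cells (91.9%) and in 560 of 594 IgG1-dominant cells (94.3%), with medians of 87.2 and 63.8 CPM. In the 6 hosts with at least 3 IgM-dominant cells the log2 CPM of *Ighv1-72* was higher in them by 0.32 ± 0.37 (SD, 5 of 6 hosts), which an exact sign-flip test did not separate from 0 (p = 0.125, adjusted p = 0.125). *Iglc2* reached 10 counts in 29 of 37 IgM-dominant cells (78.4%) and in 339 of 594 IgG1-dominant cells (57.1%). The difference within hosts was 29.7 ± 20.7 percentage points and was positive in 5 of 6 hosts, with p = 0.0625 by the exact sign-flip test (adjusted p = 0.125). The summed heavy chain level had medians of 2112 CPM in IgM-dominant and 1840 CPM in IgG1-dominant cells.

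Since *Igkc* could not be counted, the light chain was also read from variable genes and from the genes whose spans hold *Igkc* and *Iglc1*, a choice made after the zeros were seen. *Iglv2*, the variable gene that is usually joined to *Iglc2*, had at least 10 counts in 151 cells (23.7%). The *Igkv* genes together had at least 10 counts in 183 cells (28.7%), spread over 83 of 160 listed *Igkv* genes, of which *Igkv1-135* was the commonest (20 cells). *Gm30211* reached 10 counts in 124 cells (19.5%) and *2010309G21Rik* in 307 (48.2%), and 76 cells (11.9%) had none of these readouts or *Iglc2*.

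*Iglc2* counts were higher in cells that also held *Iglv2*, which is given as a description. In the 151 cells with *Iglv2*, 111 (73.5%) had at least 10 *Iglc2* counts, with a median of 335 counts among them. In the 486 cells without it, 261 (53.7%) still had *Iglc2*, with a median of 91.0 counts. In the 111 cells with both, the counts of *Iglc2* exceeded those of *Iglv2* by a median of 0.22 on the log2 scale (10th to 90th percentile -0.44 to 0.91). Constant and variable gene thus had raw counts of like size in these cells. *Iglc2* has 612 exonic bases and *Iglv2* 366, so the counts do not order their levels. Of the 261 cells with *Iglc2* and without *Iglv2*, 149 held *2010309G21Rik*. In 40 cells *Iglv2* was present without *Iglc2*, and 12 of these held *2010309G21Rik*. *Iglv1* and *Iglv3* were at 0 in every cell. In GENCODE M21 *Iglv1* lies wholly within the span of *2010309G21Rik*, as *Iglc1* does, while *Iglv3* lies within no other gene. The part of the counting rule in the zeros of *Iglv1* was not tested either. *Iglv1* also shares 97.1% of 348 aligned coding bases with *Iglv2*.

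Kappa variable reads and *Iglc2* did not exclude each other. Of the 183 cells with *Igkv* counts, 99 (54.1%) also had *Iglc2*, against 60.1% of the 454 cells without *Igkv*. Where *Iglc2* reached 10 counts, its median count was 110 with *Igkv* and 130.0 without it. *Igkv* and *Gm30211* overlapped in 74 cells, which is 40.4% of the *Igkv* cells and 59.7% of the *Gm30211* cells. Cells with *Igkv* and none of *Iglc2*, *Iglv2* or *2010309G21Rik* numbered 51 (8.01%).

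**Figure D3:**
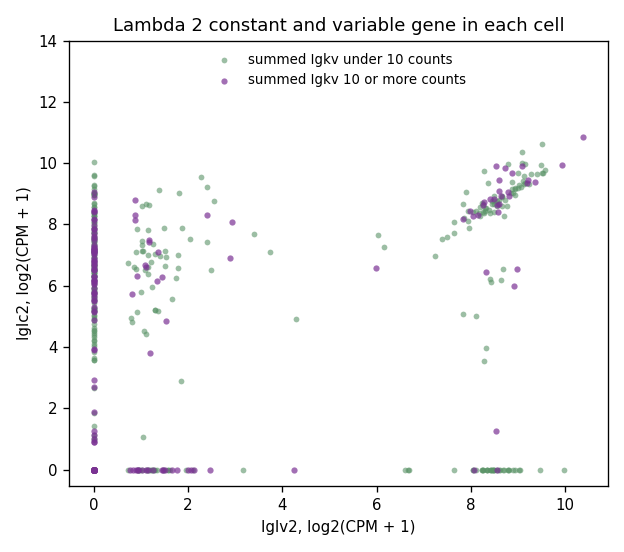
*Iglc2* against *Iglv2* in each cell, both as log2(CPM + 1); purple points are the 183 cells with at least 10 summed *Igkv* counts and green points the rest. A diagonal group at the upper right holds cells with both lambda genes, a column at the left holds *Iglc2* without *Iglv2*, and purple points are found in both.

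Acalabrutinib was compared with vehicle, with genotypes combined, to ask whether the constant region genes differed in hosts on the inhibitor. Each acalabrutinib host gave BTKC481S cells, which the drug does not inhibit, as well as BTKWT cells, so its sum is over both and a difference in BTKWT cells alone cannot be told apart from it. *Ighg1* stood at 1913 CPM in A7, 1743 in A8, 1865 in A10, 1639 in A11 and 1476 in A12, against 1822 CPM in V5, 2067 in V7 and 1576 in V9. The groups overlapped, and the means were 1727 ± 177 CPM (SD, n = 5) and 1821 ± 245 CPM (SD, n = 3). The fitted log2 fold change was -0.10 with an SE of 0.18 (edgeR quasi-likelihood test, adjusted p = 1.0).

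*Iglc2* stood at 149 CPM in A7, 136 in A8, 164 in A10, 121 in A11 and 77.9 in A12, against 196 in V5, 175 in V7 and 145 in V9. The 2 highest hosts were vehicle hosts, but V9 lay within the acalabrutinib range, and the log2 fold change of -0.43 with an SE of 0.27 did not pass the edgeR test (unadjusted p = 0.139, adjusted p = 1.0). *Ighm* varied most widely among the abundant genes. It stood at 62.5 CPM in A7, 233 in A8, 49.4 in A10, 121 in A11 and 199 in A12, and at 187 CPM in V5, 70.4 in V7 and 126 in V9, with a log2 fold change of 0.03 and an SE of 0.52.

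The rarer genes were carried by few cells in each host. For *Ighg2b* the highest cell held 87.6% of the counts in A10, 66.6% in A7 and 95.9% in V7, and the log2 fold change of 2.08 had an SE of 1.5. *Ighg3* ranged from 0.225 to 5.27 CPM in acalabrutinib hosts and from 4.52 to 9.60 CPM in vehicle hosts, a log2 fold change of -1.69 with an SE of 1.37. *Ighd*, *Ighg2c* and *Igha* had SEs of 1.82, 2.18 and 1.05 on the log2 scale.

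The edgeR test called no gene between treatments. Of 18016 genes tested 0 passed an adjusted p of 0.05 by edgeR (0%), 616 had an unadjusted p under 0.05 (3.42%), and DESeq2 called 94 of 17171 (0.547%). Of the 8 members tested 0 were called by either tool and 0 had an unadjusted p under 0.05, 2 had a positive and 6 a negative log2 fold change, and their median was -0.14 beside 0.02 over all genes tested. *Igkc* and *Iglc1* could not be tested. The spread between hosts was wide, so the lack of a call does not show that levels were alike. Fewer cells of a kind and less RNA per cell cannot be told apart in these sums, and the p-values cover the spread between hosts.

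**Figure D4:**
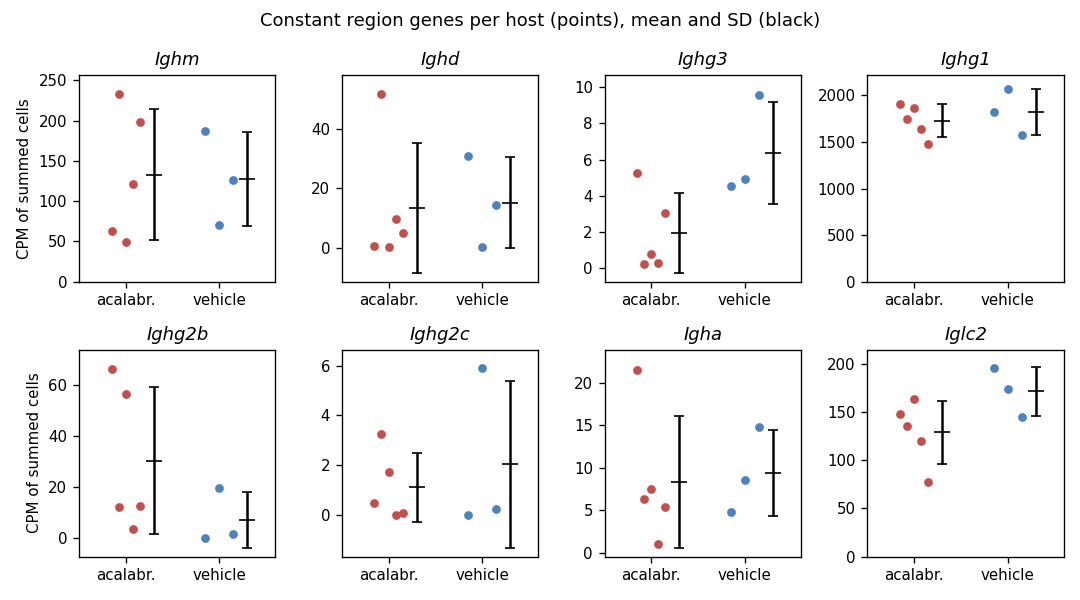
CPM of the summed cells of each host for the 8 constant region genes with counts, hosts given acalabrutinib in red (n = 5) and vehicle in blue (n = 3), with the mean and SD in black. In every panel the treatments overlap, and the spread of *Ighd*, *Ighg2b*, *Ighg2c* and *Igha* is set by 2 high hosts in each.

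Shares of cells did not separate the treatments either. IgM-dominant cells were 3 of 45 in A7, 8 of 89 in A8, 0 of 52 in A10, 6 of 113 in A11 and 8 of 80 in A12, against 4 of 71 in V5, 1 of 55 in V7 and 7 of 130 in V9. These are means of 6.19 ± 3.93% (SD, n = 5) and 4.28 ± 2.13% (SD, n = 3), a difference of 1.91 percentage points (exact permutation test over 56 splits of the hosts, two-sided, p = 0.518, adjusted p = 0.768). IgG1-dominant cells averaged 92.8 ± 3.56% and 95.5 ± 2.37% (exact permutation p = 0.339, adjusted p = 0.768), and cells with 2 or more classes 16.8 ± 4.79% and 15.7 ± 1.20% (exact permutation p = 0.696, adjusted p = 0.768). The smallest p this design allows is 0.018. Where a host had several plates, the IgM-dominant share ranged from 6.52% to 21.4% over the 3 plates of A8 and from 2.63% to 9.09% over the 2 plates of V5, and the highest of these, a plate of A8, held 3 such cells of 14.

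The light chain readouts behaved in the same way. Cells with at least 10 *Iglc2* counts were 53.3% in A7, 46.1% in A8, 69.2% in A10, 60.5% in A11 and 54.3% in A12, and 60.6% in V5, 69.1% in V7 and 59.2% in V9 (exact permutation p = 0.304, adjusted p = 0.768). The difference in means was -6.27 percentage points. The shares with *Iglv2*, *Igkv*, *Gm30211*, *2010309G21Rik* and both *Igkv* and *Iglc2* differed by -6.54, -1.55, -2.91, -2.04 and -1.94 percentage points, each with an adjusted exact permutation p of 0.768 over the 9 shares tested.

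*Ighm* was a larger part of the heavy chain transcripts in the cells above their host's median of cycling genes. This split orders the cells of a host and calls no cell cycling. Cells of each host were split at the host's median of the summed CPM of *Mki67*, *Top2a*, *Cdk1*, *Ccnb1* and *Aurkb*, genes of DNA replication and mitosis. In the cells above the median *Ighm* made up 3.83% of heavy chain counts in A7, 17.4% in A8, 3.66% in A10, 10.6% in A11, 15% in A12, 9.72% in V5, 6.21% in V7 and 10.9% in V9. In the other cells it made up 2.32%, 5.42%, 1.26%, 2.56%, 8.09%, 8.58%, 0% and 3.29% in the same order of hosts. Every host was higher above the median, by 5.73 ± 3.78 percentage points on average (SD, n = 8). The exact sign-flip test gave p = 0.00781, the smallest it can give, and an adjusted p of 0.0469 over 12 comparisons. These 12 include the *Ighg1* comparisons, which were added after seeing the data. The adjusted p depends on the *Ighg1* comparison in the same split, whose p was as small. Among the planned comparisons the next smallest exact sign-flip p was 0.0547, so none of them had a p as small. The call at 0.05 thus holds only with the added *Ighg1* comparisons included, and over the planned ones alone it would not pass. With any 1 host left out the adjusted p lay between 0.0625 and 0.0938, since 7 hosts allow no p under 0.0156. By cells, 54 of the 316 cells above the median had at least 10 *Ighm* counts (17.1%) against 25 of the 321 others (7.79%), and 25 against 12 were IgM-dominant. Not every host had more IgM-dominant cells above the median, since V5 had 1 of 35 against 3 of 36 and A10 had 0 on both sides. The *Ighm* level itself was higher above the median in the other 7 hosts but not in V5, where it was 173 CPM against 205 CPM and *Ighg1* was 1558 CPM against 2152 CPM. When each cell had equal weight the difference was 4.47 percentage points and did not pass (exact sign-flip test, adjusted p = 0.0938).

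*Ighg1* moved the other way. Its level was 10.64 on the log2 CPM scale above the median and 10.92 below it, and it was lower above the median in each of the 8 hosts, with a mean difference of -0.28 ± 0.14 (SD). The exact sign-flip p was 0.00781 and the adjusted p 0.0469, which depends in turn on the *Ighm* comparison. *Ighg1* held most heavy chain counts, so the differences in *Ighm* and *Ighg1* are not independent. Within the 594 IgG1-dominant cells alone the difference was -0.24 ± 0.13 and negative in every host (exact sign-flip test, adjusted p = 0.0469). They are most of the same cells and were chosen by their *Ighg1* counts, so this is no separate support. The cells above the median of cycling genes held more counts (876266 at the median) than the others (728611). After thinning to equal depth the differences were 6.65 percentage points for *Ighm* and -0.29 for *Ighg1*, each with an adjusted exact sign-flip p of 0.0469. Thinning leaves the expected share of a gene in a cell's counts unchanged, so it cannot decide what part the depth gap had. Over all cells the level of *Ighg1* had a Spearman's rho of -0.31 with a cell's total counts, and that of *Ighm* -0.0038. The part of depth in both differences was not tested. As for *Ighm*, neither call passed with any 1 host left out. With equal weight for each cell the adjusted p for *Ighg1* was 0.254. The summed level of the 10 genes was 1929 CPM above the median and 2276 CPM below it.

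**Figure D5:**
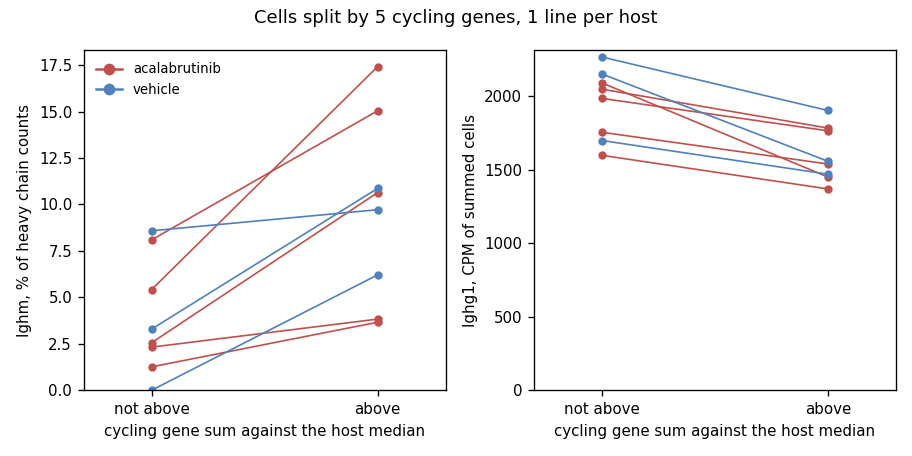
*Ighm* as a percentage of heavy chain counts (left) and *Ighg1* in CPM (right) in the cells of each host below or at and above the host's median of 5 cycling genes; each line is a host, red for acalabrutinib and blue for vehicle. All 8 lines rise for *Ighm* and all 8 fall for *Ighg1*.

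The other splits of the cells gave no call. *Myc*, a marker of cells selected by T cell help, was detected in 177 cells. In them *Ighm* made up 10.6% of heavy chain counts against 6.29% in the others (5 of 8 hosts higher; exact sign-flip test, adjusted p = 0.321). *Ighg1* had a difference of -0.28 ± 0.28 on the log2 scale, negative in all but 1 of the 8 hosts, with p = 0.0234 by the exact sign-flip test and 0.0938 after adjustment. *Cxcr4*, the chemokine receptor of the dark zone, was detected in 340 cells, and the log2 ratio of heavy chain to *Iglc2* counts was 3.92 in them and 3.58 in the others and higher in 6 hosts of 8, with p = 0.0547 by the exact sign-flip test and 0.164 after adjustment. At least 2 of the plasma cell regulators *Prdm1*, *Irf4* and *Xbp1* were detected in 60 cells, and only 3 hosts had 5 cells on each side, which allows no p under 0.25. For *Ighg1* the difference was 0.13 ± 0.12 and positive in each of them on the log2 scale (exact sign-flip test, p = 0.25).

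Genes that act on these transcripts were read from 3 lists. Of 15 genes for receptor partners and immunoglobulin transcription, 0 were called between treatments, 3 had a positive and 12 a negative log2 fold change, and the median was -0.05 beside 0.02 over all genes tested. The receptor's signaling partners *Cd79a* and *Cd79b* had log2 fold changes of -0.01 and -0.03, with SEs of 0.21 and 0.23. Of 12 genes for folding and secretion of antibody, 11 could be tested and 0 were called, with a median of -0.15. *Jchain*, which joins IgM and IgA into polymers, had a count in 91.2% of cells and a log2 fold change of -0.11 with an SE of 0.16, and *Mzb1*, with 2 counts in all, could not be tested. Of 20 genes for class switching and mutation 0 were called, 9 were positive and 11 negative, with a median of -0.02. *Polh*, the error-prone polymerase of hypermutation, stood at 105 ± 15.4 CPM (SD, n = 5) in acalabrutinib hosts and 159 ± 47.1 CPM (SD, n = 3) in vehicle hosts, and its log2 fold change of -0.62 with an SE of 0.22 had an unadjusted p of 0.0187 and an adjusted p of 1.0 by edgeR.

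Across the 637 cells, the 3 genes outside the immunoglobulin loci whose level ranked most like the summed 10 genes, among 10601 genes with a count in at least 10% of cells, were *Cd79b* (Spearman's rho 0.40 on log2(CPM + 1)), *Rn18s-rs5* (0.35) and *mt-Rnr2* (0.35). For *Ighg1* alone they were *Cd79b* (0.35), *mt-Rnr2* (0.31) and *Gucy1b2* (0.30). Within hosts the rho of *Cd79b* with the summed genes ranged from 0.09 to 0.40. With *Ighg1* it ranged from -0.065 to 0.45 for *Cd79b*, from 0.010 to 0.41 for *mt-Rnr2* and from 0.016 to 0.42 for *Gucy1b2*. The summed level itself had a rho of -0.36 with the total counts of a cell, which all these genes share as a denominator. For *Ighm*, at 0 in most cells, the highest values were weak, at 0.20 for *Npas3*, 0.18 for *Cd36* and 0.17 for *Skp2*, and ranged within hosts from -0.24 to 0.40 for *Npas3*.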

How the data were processed

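Single LZ GC B cells were profiled by SMART-seq2. Alignment by the authors used STARsolo 2.7.10a and GRCm39, release 107 (the labels also list GRCm38), and a read was counted by its overlap with a gene region, exons or introns. They deposited 1 matrix of raw counts made unique by exact position, with no normalization. No molecular identifiers were used. SDs are over hosts, and SEs of fold changes come from counts summed per host. Cells were assigned to hosts from their names. Symbols were matched exactly, the 637 cells were all kept, and no doublet caller was run.

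CPM are counts per 1000000 of a cell's or host's total. Counts summed per host were compared with edgeR 4.0.16 (TMM, filter on low counts, quasi-likelihood test, Benjamini-Hochberg adjustment over all genes) in R 4.3.3, with DESeq2 1.42.0 as an alternative. The edgeR step was also run on simulated data. The outcome of that run is not reported here, and no result rests on it. Standard errors of fold changes were derived from the F statistic. Shares of cells were compared by exact permutation over hosts and splits of cells by exact sign-flip tests over those hosts that had 5 cells or more per side. Thinning drew every cell to an equal depth of 459128 counts and left out 64 shallower cells (37 from acalabrutinib and 27 from vehicle hosts). Exonic lengths and sequences are from GENCODE M21 on GRCm38, and coordinates are left out because the counts use GRCm39. Python 3.11.15, NumPy 2.4.6 and SciPy 1.17.1 were used.

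The members and lists were chosen with earlier results of these data known. The genes named are the 10 members, constant and variable genes that complete or could share reads with them, 3 lists, and the 3 genes most like the summed members, *Ighm* and *Ighg1*. *Ighv5-2*, *Ighv1-74*, *Ighv1-69*, *Igkv1-135*, *Gm30211* and *2010309G21Rik* were named after their values were seen. The light chain readouts by share, *Ighg1* in the splits of cells, also in IgG1-dominant cells alone, and the comparison of IgM-dominant with IgG1-dominant cells, with their alternatives, were added after seeing the data. Alternatives tried were other thresholds, minimums, tools and scalings, thinning, and leaving out each host. Genotypes could not be compared. Some genes of the lists are not reported here by name.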

Additional observations from a re-analysis of the deposited data

Results flagged for a closer look

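Among the values tested for a host that stands apart from the other 4 acalabrutinib hosts, 1 was marked. The level of *Ighd* in A8 was 51.8 CPM, against 0.0519 to 9.56 CPM in the other acalabrutinib hosts and 0.0472 to 30.8 CPM in the vehicle hosts. A8 held 8 of the 22 cells with at least 10 *Ighd* counts, and its highest cell, with 1013 counts, held 31.4% of the host's *Ighd* counts. Chance marks about 1 in 20 groups, and 18 were tested.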

How the results depend on the processing

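Changes below are acalabrutinib minus vehicle in percentage points for shares and on the log2 scale for genes, and above minus below or in minus out for splits of cells. Leaving aside the kappa, *Iglc2*-dominant and kappa with lambda shares, whose values the zeros fixed, 306 of 361 alternative values kept their direction and their side of the threshold. DESeq2 called 94 genes where edgeR called 0, among them no member. Neither a member nor a share passed its test between treatments under any alternative, so the sign changes that follow are between values not separated from 0, and the cause was not tested. The IgM-dominant share became -0.28 with 90% dominance. The share with 2 or more classes became -0.24 when a class counted from 1 count, -2.26 after thinning, and ranged from -0.21 (without A12) to 2.49 with a host left out. The *Igkv* share became 0.93 with at least 100 counts and ranged from -4.07 to 2.34 (without V7). The *2010309G21Rik* share became 1.92 with at least 100 counts and 3.29 from 1 count, and ranged from -5.11 to 0.045 (without V5). The share with *Igkv* and *Iglc2* became 0.63 with at least 100 counts and ranged from -3.62 to 1.16 (without V7). The log2 fold change ranged with a host left out from -0.31 (without A8) to 0.48 (without V5) for *Ighm*, -2.12 (without A8) to 1.02 (without V5) for *Ighd*, -0.25 (without V9) to 0.013 (without V7) for *Ighg1*, -1.86 (without A8) to 3.39 (without V7) for *Ighg2c*, -0.89 (without A7) to 0.29 (without V9) for *Igha*, 1.49 (without V5) to 5.2 (without V7) for *Ighg2b*, -2.61 (without A7) to -1.35 (without V9) for *Ighg3* and -0.60 (without V9) to -0.28 (without V5) for *Iglc2*. As a mean over cells it was 0.018 for *Ighg2c*, 0.15 for *Ighg2b* and -0.14 for *Ighg3*. The IgM-dominant share ranged from 0.68 (without V7) to 3.46 (without A10), the share with *Iglc2* from -9.40 (without A10) to -3.20 (without V7) and the median share of a cell's counts from -0.036 (without V9) to -0.0095 (without V5).

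In the cycling split the difference in *Ighm* was 4.47 and that in *Ighg1* -0.27 with equal weight for each cell, both past the threshold no longer. With a host left out they ranged from 4.84 (without A8) to 6.39 (without V5) and from -0.30 (without A10) to -0.24 (without A8), with adjusted p between 0.0625 and 0.0938. With 7 hosts the sign-flip test gives no p under 0.0156 before adjustment over 12 comparisons, so these calls were lost with each host in turn through the smaller number of hosts. Thinning kept both calls, but it leaves the expected share of a gene in a cell's counts unchanged. The log2 ratio of heavy chain to *Iglc2* in *Myc* cells became 0.078 after thinning and ranged from -0.15 to 0.077. For the plasma cell regulators that ratio ranged from -0.071 to 0.55, and the *Ighm* percentage became -1.13 after thinning and ranged from -0.39 to 2.17. *Ighg1* in *Cxcr4* cells became 0.024 after thinning and ranged from -0.062 to 0.033. *Ighd*, *Ighg2b*, *Ighg2c*, *Ighg3* and *Igha* rest on 5 to 24 cells with at least 10 counts, which limits their levels by host.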
